A study of Mus musculus with 4 samples.

Results

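The 39 genes described here are clotting factors, anticoagulant receptors and inhibitors, genes of the plasminogen system, membrane-bound Kunitz-type protease inhibitors, ectonucleotidases, and complement proteins with their regulators and receptors. They were taken by gene symbol from the deposited table of 17915 coding genes, and all 39 were found there. Values come from 4 bulk RNA sequencing libraries of pulmonary endothelial cells sorted from mouse lung, 2 of tdTomato+ cells and 2 of ZsGreen+ cells, all named as biological replicates in the titles. All cells came from mice of the genotype Cdh5-CreER;aSMA-LSL-Dre;NR1 that had received tamoxifen 5 times and were at 6 weeks of transverse aortic constriction (TAC). TAC narrows the aorta, loads the left heart and, per the series' design text, brings on fibrosis of the lung. Cdh5-CreER is a tamoxifen-inducible recombinase driven in endothelium. It frees Dre, a second recombinase under control of the gene for alpha smooth muscle actin (aSMA), so that endothelial cells are marked green and turn to tdTomato once that gene has been active, even for a short time. Both groups thus share genotype, tamoxifen and TAC. The number of mice behind each library, their age and any pooling are not given in the labels. A p-value therefore covers only the spread among these libraries, which may be technical.

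Clotting starts when tissue factor, kept away from blood, binds factor VII and activates factor X, which with its cofactor factor V forms thrombin. Healthy endothelium holds this back: thrombomodulin and the endothelial protein C receptor turn thrombin towards activating protein C, tissue factor pathway inhibitor blocks the initiating complex, and tissue-type plasminogen activator starts the breakdown of fibrin. Complement is a parallel cascade of serine proteases that tags and pierces cells, and CD55 and CD59 on the cell's own membrane stop it. The lung capillary bed is a site where both cascades meet blood over a very large surface.

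The libraries held 17050673 to 18574737 counts over coding genes. Levels are given in CPM, the count of a gene relative to the size of its library after TMM normalization, which corrects for a few genes that take up much of one library. Acta2, the gene that the recorder reads, stood at 303.9 and 527.5 CPM in the tdTomato+ libraries versus 87.6 and 82.9 CPM in the ZsGreen+ libraries (log2 fold change 2.29, edgeR adjusted p = 0.0432). The 10 pan-endothelial markers, among them Egfl7 and Esam, summed to 9710 and 9565 CPM in the tdTomato+ libraries versus 12561 and 10799 CPM in the ZsGreen+ libraries, and none was at 0. Markers of other cells were present as well and moved with the groups or with single libraries. The 12 macrophage markers, led by Lyz2 and Chil3, summed to 5634 and 2653 CPM in the tdTomato+ libraries versus 3151 and 661 CPM in the ZsGreen+ libraries. The 10 fibroblast markers, of which Pi16 and Col1a1 had the highest TPM, summed to 243 and 447 CPM versus 101 and 125 CPM, the 8 venous markers, led by Vwf and Selp, to 3978 and 4624 CPM versus 1708 and 1390 CPM, and the 10 alveolar type 2 markers, led by Sftpc and Lyz1, to 871 and 738 CPM versus 564 and 245 CPM. Both tdTomato+ libraries lay above both ZsGreen+ libraries for 4 of the 12 macrophage and 6 of the 10 fibroblast markers. The same held for 5 of the 8 venous and 8 of the 10 alveolar type 2 markers, and for 19.9% of all tested genes. None of these 40 markers was at 0 in all 4 libraries. Other endothelial lists did not follow the venous one. Both tdTomato+ libraries lay below both ZsGreen+ libraries for 6 of 8 aerocyte, 4 of 8 general capillary and 8 of 9 tested lymphatic markers. The share of all tested genes in that position was 18.2%. Of the 7 tested arterial markers, 2 lay above in both tdTomato+ libraries, 2 lay below and 3 overlapped between groups. In bulk RNA, fewer cells of a type and less RNA per cell cannot be told apart.

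Among the 39 genes, Spint2 alone was called, higher in tdTomato+ cells by 4.37-fold. Of the 39, 37 passed the filter on low counts and were tested. Cfd and Cfi did not pass. By edgeR's quasi-likelihood test with Benjamini-Hochberg adjustment over 13177 genes, 1 of the 37 was called (2.70%), against 0.304% of all genes, which is 40 genes, 22 higher (0.167%) and 18 lower (0.137%). On the deposited TPM values, which correct for gene length, limma was run over 11978 genes. Of all these genes it called 22 higher and 9 lower with a pseudocount of 1, and 16 and 6 with a pseudocount of 0.1. Spint2 was the only member called with either pseudocount. With 2 libraries a group, leaving out 1 changed which members were called. Spint2 was not called when either tdTomato+ library was left out, while its log2 fold change stayed between 1.92 and 2.37. DESeq2 called 5 of the 39 members, all higher in tdTomato+ cells: Spint2, Cd59a, Procr, Masp1 and Cd55. It also called more of all genes than edgeR, at 330 of 16747.

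Both tdTomato+ libraries lay above both ZsGreen+ libraries for 15 of the 37 members (40.5%), against 19.9% of all tested genes, and below them for 4 (10.8%), against 18.2% of all tested genes. An unadjusted edgeR p under 0.05 was reached by 11 members, against 8.77% of all tested genes. Of these, 10 were higher in tdTomato+ cells (5.62% of all genes) and 1, Thbd, was lower (3.15%). The median log2 fold change of the 37 was 0.61, and that of all 13177 genes was -0.01. That median was 0.19 without tdTomato+ replicate 2, 0.24 without ZsGreen+ replicate 2 and 0.35 with a minimum count of 30 in the filter.

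**Figure D1:**
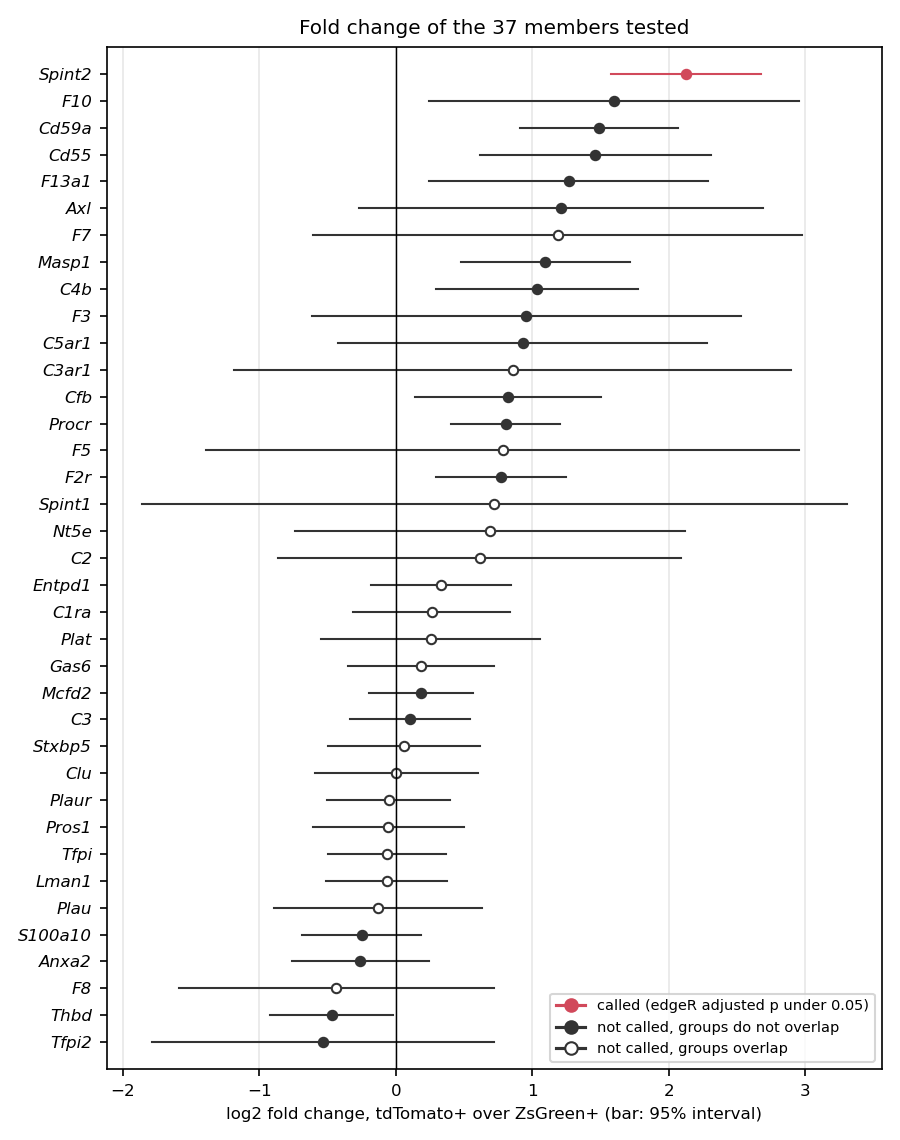
log2 fold change of the 37 tested members in tdTomato+ over ZsGreen+ cells from edgeR, ordered by size, with bars for the 95% interval. Spint2, at the top with 2.13, is the only called member, and filled points mark members whose 2 libraries of one group all lie on one side of the other group's.

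Spint2 encodes hepatocyte growth factor activator inhibitor type 2, a membrane-anchored protein with Kunitz domains that blocks serine proteases such as matriptase and the hepatocyte growth factor activator. It stood at 54.6 and 58.5 CPM in the tdTomato+ libraries versus 14.9 and 10.96 CPM in the ZsGreen+ libraries. The groups lay far apart and the libraries of each group lay close together, at 56.5 ± 2.76 CPM and 12.9 ± 2.81 CPM (SD, n = 2). The log2 fold change was 2.13 (95% interval 1.58 to 2.68, edgeR adjusted p = 0.0304). In TPM the libraries read 80.0 and 80.6 against 17.5 and 15.2. Of the 10 alveolar type 2 markers, 8 were also higher in both tdTomato+ libraries, against 19.9% of all tested genes. Other epithelial lists did not follow this. Of the 8 alveolar type 1 markers, 1 was higher and 3 were lower in both tdTomato+ libraries, and all 5 tested airway markers overlapped between groups. The part of epithelial RNA in the Spint2 values was not tested. The call ended without tdTomato+ replicate 1 (log2 fold change 2.17, edgeR adjusted p = 0.0706) and without tdTomato+ replicate 2 (2.10, adjusted p = 0.20), while the size of the difference stayed between 1.92 and 2.37 without any 1 of the 4 libraries. Spint2 (NCBI Gene 20733) lies on the minus strand of chromosome 7, from position 29256330 to position 29282059 (GRCm38).

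Spint1, which encodes the related inhibitor type 1, did not show this pattern. It stood at 7.92 and 2.15 CPM in the tdTomato+ libraries versus 5.76 and 0.383 CPM in the ZsGreen+ libraries, so the groups overlapped and each group was spread widely. The log2 fold change was 0.72 with a 95% interval from -1.86 to 3.30 (edgeR adjusted p = 0.929). The difference between the fold changes of Spint1 and Spint2 was not tested.

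Cd59a and Cd55, the membrane inhibitors of complement among the members, were higher in both tdTomato+ libraries, without passing edgeR's test over all genes. This did not hold for all complement genes outside the members. Cr1l overlapped between groups, at 118 and 127 CPM in the tdTomato+ libraries versus 127 and 136 CPM in the ZsGreen+ libraries (log2 fold change -0.10). Cd46 also overlapped, at 8 to 11 counts a library, and was not tested. Cd59a encodes CD59, which keeps the terminal complement proteins from forming a pore. It stood at 33.8 and 39.9 CPM in the tdTomato+ libraries versus 15.1 and 11.2 CPM in the ZsGreen+ libraries. The groups did not overlap, with a log2 fold change of 1.49 (SE 0.24, edgeR adjusted p = 0.0975). It was called without ZsGreen+ replicate 1 (1.72, edgeR adjusted p = 0.0194), by edgeR without a filter on low counts (adjusted p = 0.0248) and by DESeq2 (adjusted p = 0.000174). The gene lies on the plus strand of chromosome 2, from position 104095753 to position 104115410. Cd55 encodes decay-accelerating factor, which breaks up the enzymes that activate C3. It stood at 12.2 and 17.8 CPM versus 4.37 and 6.52 CPM, with no overlap and a log2 fold change of 1.46 (SE 0.36, edgeR adjusted p = 0.228).

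Both genes have related copies, and their deposited counts are not all whole, as when reads are shared out between copies. For Cd55 the counts of the ZsGreen+ libraries, 69 and 119, were whole. The copies were low: Cd59b had between 2.16 and 6.5 estimated counts a library, and Cd55b had 1.11 in tdTomato+ replicate 1 and 0 in the other 3. The share of reads that belongs to each copy is therefore uncertain, but few reads were assigned to the copies.

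The soluble regulators behaved otherwise. Clu encodes clusterin, a secreted chaperone that also binds terminal complement. It was one of the most abundant members, at 597 and 608 CPM in the tdTomato+ libraries versus 735 and 468 CPM in the ZsGreen+ libraries. The ZsGreen+ libraries stood on either side of the tdTomato+ libraries, and the log2 fold change was 0.00 (95% interval -0.59 to 0.60). Cfi, complement factor I, the plasma protease that cuts C3b, had 5 and 12 counts against 8 and 6 counts and was not tested.

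None of the thrombin receptor, protein C receptor and thrombomodulin genes was called. In both tdTomato+ libraries the values of the first 2 lay above, and those of thrombomodulin below, the ZsGreen+ values. F2r encodes PAR1, the protease-activated receptor through which thrombin signals. It stood at 54.7 and 44.4 CPM in the tdTomato+ libraries versus 29.7 and 28.4 CPM in the ZsGreen+ libraries, without overlap (log2 fold change 0.77, SE 0.20, edgeR adjusted p = 0.268). Procr encodes the endothelial protein C receptor, which presents protein C to the thrombin-thrombomodulin complex. Its libraries stood at 158 and 155 CPM versus 95.5 and 83.9 CPM, which is the narrowest spread among the members with a fold over 1.5. The log2 fold change was 0.80 (95% interval 0.41 to 1.20, edgeR adjusted p = 0.164), and DESeq2 called it (0.79, adjusted p = 0.0142). Procr lies on chromosome 2 from 155751125 to 155755478 and F2r on chromosome 13 from 95601780 to 95618466.

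Thbd, thrombomodulin, was the most abundant anticoagulant gene, at 273 TPM over the 4 libraries against 145 TPM for Procr and 54.5 TPM for Tfpi. It stood at 559 and 518 CPM in the tdTomato+ libraries versus 698 and 791 CPM in the ZsGreen+ libraries. All values of one group lay below those of the other, but the difference of -0.47 (95% interval -0.92 to -0.02) did not pass over all genes (edgeR adjusted p = 0.544). Thbd and Procr thus stood on opposite sides of 0. A test of the difference between them was not run.

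Tfpi and Pros1 had fold changes near 0. Tfpi, tissue factor pathway inhibitor, stood at 59.6 and 52.3 CPM versus 54.9 and 62.0 CPM (log2 fold change -0.06, 95% interval -0.50 to 0.37). Pros1 encodes protein S, the cofactor of activated protein C, and stood at 94.5 and 118 CPM versus 89.9 and 131 CPM (-0.05, 95% interval -0.61 to 0.50). The groups overlapped for both genes, and their intervals exclude a doubling in either direction. Tfpi2, a Kunitz inhibitor of the matrix, was low at 27 to 51 counts a library, with 2.31 and 1.42 CPM versus 2.59 and 2.79 CPM. Both tdTomato+ libraries lay below both ZsGreen+ libraries, and the log2 fold change was -0.53 with a 95% interval from -1.78 to 0.72 (edgeR adjusted p = 0.879).

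Promoter sequence is shown for the members with the smallest edgeR p, of which Spint2 alone was called and all lay higher in both tdTomato+ libraries. By p these are Spint2, Cd59a, Procr, Masp1, Cd55 and F2r. RefSeq windows on GRCm38.p6 were found for 28 of the 39 members, and Masp1 is not among them. The window of Cd55 lies inside the span that the deposited table gives for the gene and is not shown. Each sequence runs 5′ to 3′ on the gene's strand over 150 bases, from -250 to -101 relative to the RefSeq start site used for the window. For Spint2, Cd59a and Procr that start site lies inside the gene span given above, and not at its edge. Capitals mark a match to a GC box (GGGCGG or CCGCCC), an AP-1 site (TGANTCA) or an ETS site (CCGGAA or TTCCGG), searched on both strands with no overlap between matches.
Spint2: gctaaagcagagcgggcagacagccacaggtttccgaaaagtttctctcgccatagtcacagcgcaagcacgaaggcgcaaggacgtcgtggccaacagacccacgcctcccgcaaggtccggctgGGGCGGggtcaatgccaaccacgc
Cd59a: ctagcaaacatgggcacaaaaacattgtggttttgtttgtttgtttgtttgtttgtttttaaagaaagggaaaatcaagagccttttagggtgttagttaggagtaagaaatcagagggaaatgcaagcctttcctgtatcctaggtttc
Procr: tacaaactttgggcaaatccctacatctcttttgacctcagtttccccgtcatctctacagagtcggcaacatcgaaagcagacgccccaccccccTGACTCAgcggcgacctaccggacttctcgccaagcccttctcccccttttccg
F2r: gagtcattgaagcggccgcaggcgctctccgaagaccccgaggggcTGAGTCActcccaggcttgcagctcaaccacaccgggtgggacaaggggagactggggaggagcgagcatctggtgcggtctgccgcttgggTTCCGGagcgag

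The windows lie at chr7:29282078-29282227 (minus strand) for Spint2, chr2:104095551-104095700 (plus strand) for Cd59a, chr2:155750967-155751116 (plus strand) for Procr and chr13:95618567-95618716 (minus strand) for F2r. No motif is common to all 4. Spint2 holds a GC box at -124 to -119, which 16.7% of all 32851 promoter windows of this length hold. Procr holds an AP-1 site at -154 to -148 and F2r one at -204 to -198, which 4.00% of all windows hold, and F2r also holds an ETS site at -112 to -107 (5.40% of all windows). The Cd59a window holds none of the 3 and no CpG dinucleotide, with 36.7% G and C, against 62.7% in Spint2, 56% in Procr, 66.7% in F2r and a median of 50.7% over all windows. The CArG box, the element of serum response factor known from smooth muscle actin genes, was found in 0 of 33 windows of the members and in 0.776% of all windows. Such matches describe letters in a window and not binding.

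Of the 7 complement components 6 were tested and none was called. Both tdTomato+ libraries lay above both ZsGreen+ libraries for 4 of the 6, against 19.9% of all tested genes. Masp1 encodes a serine protease of the lectin pathway and stood at 60.7 and 49.2 CPM in the tdTomato+ libraries versus 31.2 and 20.3 CPM in the ZsGreen+ libraries (log2 fold change 1.10, SE 0.26, edgeR adjusted p = 0.218). It was called without ZsGreen+ replicate 1 (1.44, edgeR adjusted p = 0.0294) and by DESeq2 (1.08, adjusted p = 0.0199). Masp1 lies on chromosome 16 from 23451785 to 23521240. Rtp4 overlaps this span, where reads in shared stretches cannot be told apart without strand. Rtp4 stood at 42.3 and 40.4 CPM versus 39.8 and 44.6 CPM and did not show the pattern of Masp1.

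C4b, the fourth component that the classical and lectin proteases cut, stood at 22.5 and 29.3 CPM versus 15.8 and 9.48 CPM (log2 fold change 1.04, SE 0.31, edgeR adjusted p = 0.346). Its copy C4a had between 1.74 and 9.35 estimated counts a library. Cfb, factor B of the alternative pathway, stood at 27.3 and 40.8 CPM versus 22.6 and 15.995 CPM (0.82, SE 0.29, adjusted p = 0.452 by edgeR). For both genes the highest library was tdTomato+ replicate 2, as for the summed fibroblast markers and for other lists such as the venous one. Between the ZsGreen+ libraries both genes were higher in replicate 1, as were the summed venous markers (1708 and 1390 CPM). The summed fibroblast markers were higher in ZsGreen+ replicate 2 (101 and 125 CPM). The part of fibroblast or other RNA in the C4b and Cfb values was not tested.

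C3, on which all complement pathways converge, had the smallest fold change of the 6 components tested. It stood at 37.7 and 37.4 CPM in the tdTomato+ libraries versus 34.5 and 35.4 CPM in the ZsGreen+ libraries. These values do not overlap, yet the log2 fold change was 0.10 with a 95% interval from -0.34 to 0.54. C1ra, a protease of the C1 complex, stood at 19.8 and 26.2 CPM versus 20.8 and 17.5 CPM, and C2, the protease partner of C4, at 1.32 and 2.73 CPM versus 1.33 and 1.31 CPM. Cfd, the protease that activates factor B and a product of fat cells, had 5 counts in ZsGreen+ replicate 1 and 0 in the other 3 libraries. A count of 0 allows up to 3 counts, or 0.162 to 0.172 CPM in those libraries.

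**Figure D2:**
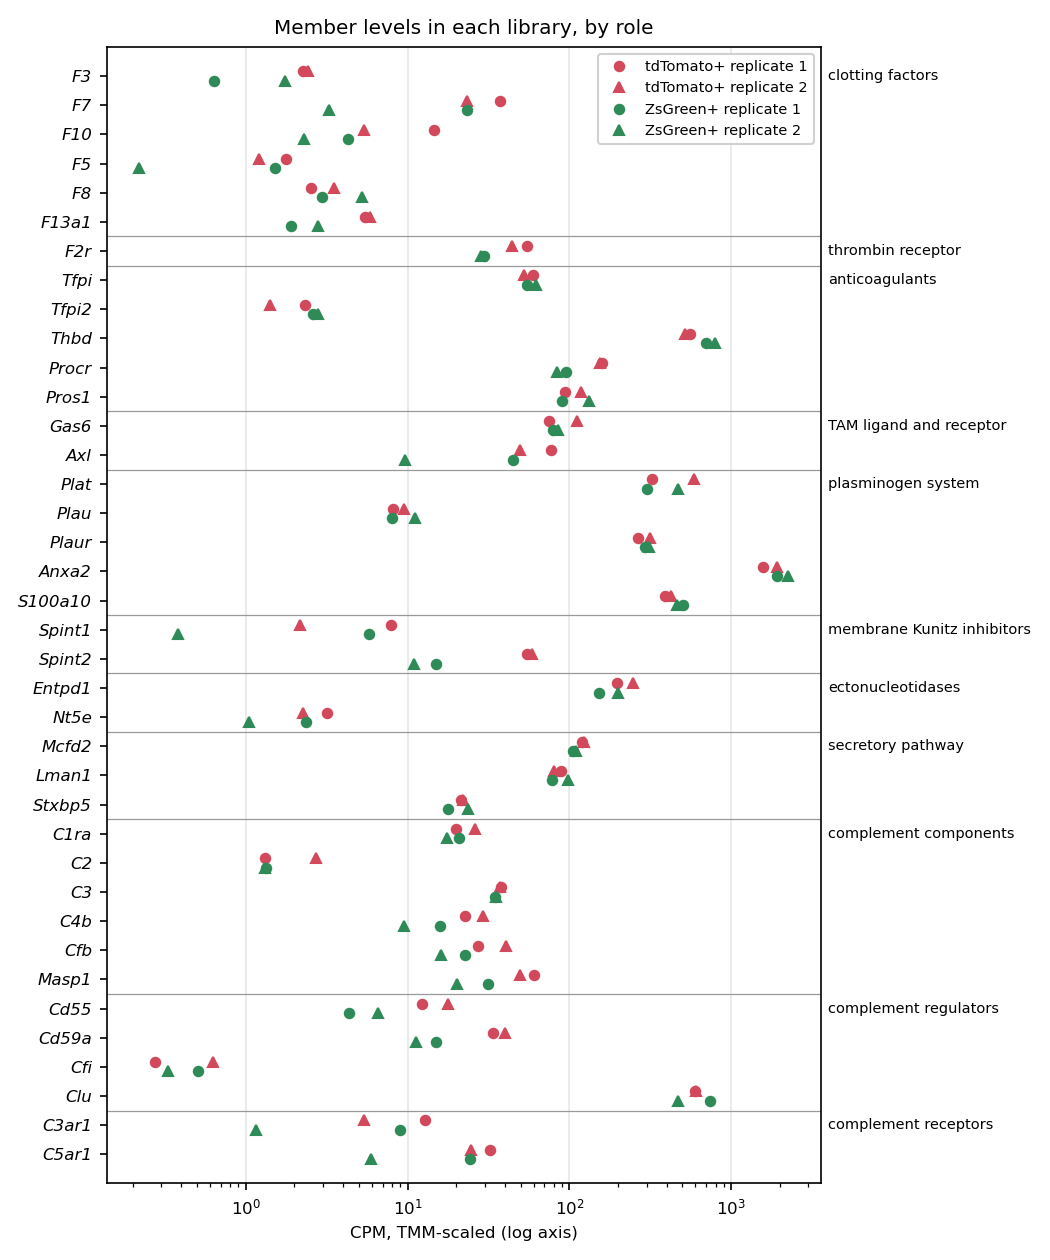
CPM of 38 members in each of the 4 libraries on a log axis, grouped by role, with tdTomato+ libraries in red and ZsGreen+ libraries in green. Cfd, at 0 in 3 libraries, is left out. Spint2, Cd59a, Cd55, Procr and F2r show red and green apart, and F7, F5, Axl, Spint1, C3ar1 and C5ar1 show 1 low ZsGreen+ library.

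Among the clotting factors none of 6 was called, and 3 lay higher in both tdTomato+ libraries, against 19.9% of all tested genes. F3 encodes tissue factor, the cell-surface trigger of clotting, and was low at 41 and 46 counts in tdTomato+ cells and 10 and 32 counts in ZsGreen+ cells. In CPM these are 2.26 and 2.42 against 0.633 and 1.75 (log2 fold change 0.96, 95% interval -0.61 to 2.53). F13a1 encodes the A chain of factor XIII, which crosslinks fibrin and is known from platelets and macrophages. It stood at 5.45 and 5.88 CPM versus 1.90 and 2.79 CPM (1.27, SE 0.43, edgeR adjusted p = 0.434). The part of platelet or macrophage RNA in its values was not tested.

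F10, factor X, stood at 14.6 and 5.41 CPM in the tdTomato+ libraries versus 4.30 and 2.301 CPM in the ZsGreen+ libraries, with tdTomato+ replicate 1 far above the rest (log2 fold change 1.60, SE 0.57, edgeR adjusted p = 0.46). F7, factor VII, lies next to it on the plus strand of chromosome 8 and was the most abundant clotting factor per length, at a mean of 19.8 TPM beside 4.14 TPM for F10. It stood at 37.2 and 23.3 CPM versus 23.4 and 3.29 CPM. The ZsGreen+ libraries of F7 differed 7.12-fold from each other, and the fold change between groups was 1.19 on the log2 scale (95% interval -0.60 to 2.98). Without ZsGreen+ replicate 1 it was 3.20 and called (edgeR adjusted p = 0.0144), and the lowest value over the 4 libraries left out was 0.37.

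The large cofactors were low. F5, factor V, had 32 and 23 counts in tdTomato+ cells and 24 and 4 counts in ZsGreen+ cells. F8, factor VIII, which endothelium is known to make, had 46 and 67 counts against 47 and 95 counts, or 2.53 and 3.52 CPM versus 2.97 and 5.20 CPM, where the groups overlapped (log2 fold change -0.44, 95% interval -1.59 to 0.72).

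Receptors for the complement fragments were highest in tdTomato+ replicate 1 and lowest in ZsGreen+ replicate 2. Of the 12 macrophage markers, 11 were highest in the same library and 10 were lowest in the same library. The exceptions, named after their values were seen, were Marco, at 11.3 and 55.2 CPM versus 4.999 and 12.7 CPM, and Mrc1, at 31.9 and 15.96 CPM versus 15.6 and 20.8 CPM. C3ar1, the C3a receptor, and C5ar1, the C5a receptor, are both known from myeloid cells. C3ar1 stood at 12.9 and 5.41 CPM in the tdTomato+ libraries versus 8.99 and 1.15 CPM in the ZsGreen+ libraries (log2 fold change 0.86, 95% interval -1.18 to 2.90). C5ar1 stood at 32.5 and 24.7 CPM versus 24.2 and 5.97 CPM (0.93, 95% interval -0.42 to 2.28). For C5ar1 the groups did not overlap by a narrow margin, and for C3ar1 they did. Without ZsGreen+ replicate 1, C5ar1 was called (2.26, edgeR adjusted p = 0.0183).

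Axl showed the same order at its extremes and its ligand did not. Axl is a receptor tyrosine kinase of the TAM family, and Gas6 is its vitamin K-dependent ligand, related to protein S. Axl stood at 76.9 and 49.2 CPM in the tdTomato+ libraries versus 44.9 and 9.70 CPM in the ZsGreen+ libraries (log2 fold change 1.21, SE 0.62, edgeR adjusted p = 0.69), and was called without ZsGreen+ replicate 1 (2.70, adjusted p = 0.0138). Gas6 stood at 75.2 and 112 CPM versus 79.0 and 85.2 CPM, so that the groups overlapped (0.18, 95% interval -0.35 to 0.72). Gas6 overlaps Tmem255b on the other strand of chromosome 8, and Tmem255b was called higher in tdTomato+ cells, at 25.7 and 36.5 CPM versus 7.85 and 6.68 CPM (2.10, edgeR adjusted p = 0.0465). Whether reads of one were counted for the other was not tested.

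Between the 2 ZsGreen+ libraries, 5 members were at least 4-fold higher in replicate 1 than in replicate 2 after 0.1 CPM was added to each value: Spint1, C3ar1, F7, F5 and Axl. This threshold was chosen after the values were seen. It was passed by 5 of 37 members, against 1.98% of all tested genes, and C5ar1, at 4.05-fold without the added 0.1 CPM, lay on the line with it (log2 ratio 2.00). The summed macrophage markers differed 4.76-fold between the same libraries and 2.12-fold between the tdTomato+ libraries, with no addition. This direction was not particular to macrophage markers. The low B cell markers differed 8.51-fold and 2.64-fold, and alveolar type 2 markers 2.31-fold and 1.18-fold. T and NK cell and platelet markers were also higher in replicate 1 of both groups. Other lists, such as the fibroblast one, were lower in replicate 1 of both groups. In the tdTomato+ libraries the same 6 members were also higher in replicate 1, by 1.31-fold for C5ar1 to 3.68-fold for Spint1. The part of macrophage or other RNA in the values of these members was not tested. By contrast, Spint2 differed 1.36-fold and Cd59a 1.34-fold between the ZsGreen+ libraries, and both were slightly lower in tdTomato+ replicate 1 than in replicate 2.

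**Figure D3:**
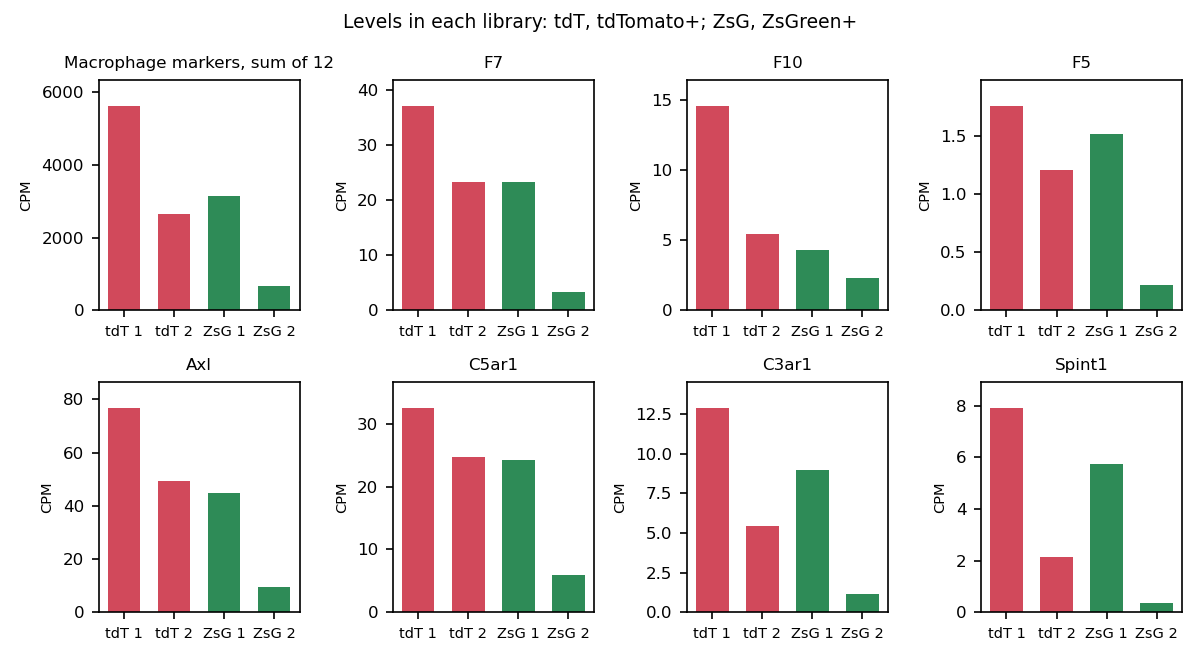
CPM in each library of the summed 12 macrophage markers and of 7 members, with bars from 0 and a separate axis for each panel. ZsGreen+ replicate 2 is lowest in every panel, at 661 CPM for the markers and 3.29 CPM for F7, and tdTomato+ replicate 1 is highest.

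**Figure D4:**
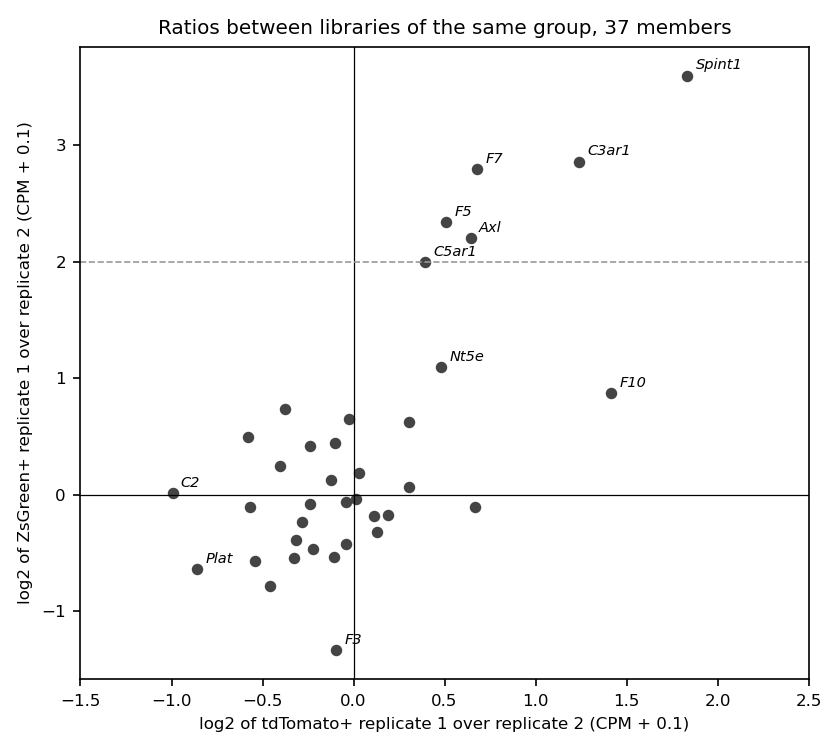
log2 ratio of replicate 1 over replicate 2 within the ZsGreen+ group (vertical axis) against the same ratio within the tdTomato+ group (horizontal axis) for 37 members, with 0.1 CPM added. Spint1, C3ar1, F7, F5 and Axl lie above the dashed line at 4-fold, while most members lie near 0 on both axes.

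Genes of the plasminogen system other than Plau were abundant, and none of the 5 was called or had an unadjusted edgeR p under 0.05. Anxa2 and S100a10 encode the partners of the annexin A2 tetramer, which holds plasminogen and its activator at the cell surface. Per length, Anxa2 was the most abundant member, at a mean of 2414 TPM and rank 50 of 17915 genes, and S100a10 followed with 1424 TPM and rank 117. Anxa2 stood at 1571 and 1911 CPM in the tdTomato+ libraries versus 1914 and 2255 CPM in the ZsGreen+ libraries (log2 fold change -0.26, 95% interval -0.76 to 0.24). S100a10 stood at 390.2 and 425.5 CPM versus 505.6 and 464.8 CPM (-0.25, 95% interval -0.69 to 0.19). Both partners were thus lower in both tdTomato+ libraries by a similar small amount.

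Plaur, the urokinase receptor, was the third of the 5 in level at 329 TPM, with 265 and 313 CPM versus 292 and 309 CPM (log2 fold change -0.05, 95% interval -0.50 to 0.39). Plat, tissue-type plasminogen activator, had a similar level of 271 TPM but varied within each group, at 326 and 591 CPM in the tdTomato+ libraries versus 300.2 and 467 CPM in the ZsGreen+ libraries. Its log2 fold change was 0.26 with a 95% interval from -0.55 to 1.06. It lay at -0.22 without tdTomato+ replicate 2 and at 0.62 at most. Plau, urokinase, was much lower at 6.54 TPM, with 8.09 and 9.45 CPM versus 8.04 and 11.1 CPM. The receptor of urokinase was thus far more abundant than urokinase in these libraries.

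The ectonucleotidases turn ATP and ADP, which activate platelets, into adenosine. Entpd1, CD39, stood at 197 and 246 CPM in the tdTomato+ libraries versus 152 and 200 CPM in the ZsGreen+ libraries, where the ranges just overlapped (log2 fold change 0.33, 95% interval -0.18 to 0.84). Nt5e, CD73, which takes the last step, was low at 58 and 43 counts against 37 and 19 counts. Per length Entpd1 stood at 75.04 TPM and Nt5e at 0.988 TPM.

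Genes that serve the secretion of clotting proteins differed little between groups, and none of the 3 was called. Mcfd2 and Lman1 encode the cargo receptor that carries factors V and VIII out of the endoplasmic reticulum, and Stxbp5 encodes tomosyn, known to restrain the release of von Willebrand factor. Mcfd2 stood at 120.4 and 123.8 CPM versus 105.2 and 109.8 CPM, without overlap but with a log2 fold change of 0.18 (95% interval -0.20 to 0.56). Lman1 (-0.06, 95% interval -0.51 to 0.38) and Stxbp5 (0.06, 95% interval -0.50 to 0.62) overlapped between groups. The intervals of all 3 exclude a doubling.

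Beyond the members, 82 other clotting, fibrinolysis and complement genes were listed from textbook pathways. Of these, 71 were in the table, 47 were tested and 1 was called by edgeR, Mmrn1, multimerin 1, a carrier protein of factor V. It was lower in tdTomato+ cells, at 15.8 and 11.7 CPM versus 74.5 and 161 CPM (log2 fold change -3.10, edgeR adjusted p = 0.0432). Mmrn1 is also in the lymphatic marker list, of which 4 of 9 tested members were called lower and none higher. Mmrn1 was not called without tdTomato+ replicate 1, without tdTomato+ replicate 2, with upper quartile factors, by limma-voom or by limma on TPM. DESeq2 called 6 of the 65 other pathway genes with a count, Mmrn1 among them, against 330 of 16747 genes. The median log2 fold change was 0.35 over 26 other clotting and fibrinolysis genes and 0.87 over 21 other complement genes, beside -0.01 over all genes. Both tdTomato+ libraries lay above both ZsGreen+ libraries for 20 of the 47 and below them for 4, against 19.9% and 18.2% of all tested genes.

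Of these genes, the ones with the next smallest p were higher in both tdTomato+ libraries. Vwf, von Willebrand factor, which carries factor VIII and tethers platelets, stood at 2006 and 2961 CPM versus 947 and 845 CPM (log2 fold change 1.47, SE 0.25, edgeR adjusted p = 0.103). Selp, P-selectin, stored in the same endothelial granules, stood at 956 and 720 CPM versus 387 and 238 CPM (1.42, SE 0.29, adjusted p = 0.154 by edgeR). Both were called by DESeq2 and, when low genes were kept in, by edgeR. The 2 genes are in the venous marker list, whose summed level was higher in tdTomato+ cells as given above. F8, the factor that von Willebrand factor carries, did not show this difference, at -0.44.

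On the complement side, Colec12, a collectin, stood at 62.4 and 84.4 CPM versus 27.5 and 39.2 CPM (log2 fold change 1.14, SE 0.25). C1s1, the partner protease of C1ra, stood at 4.90 and 6.35 CPM versus 2.40 and 2.08 CPM (1.32, SE 0.42). Itgam, a chain of complement receptor 3 known from myeloid cells, stood at 9.02 and 8.82 CPM versus 3.48 and 2.52 CPM (1.57, SE 0.37). In the clotting and fibrinolysis list, Lrp1, a clearance receptor for protease complexes, stood at 51.3 and 32.2 CPM versus 24.1 and 10.1 CPM (1.29, SE 0.43). The edgeR adjusted p of Colec12, C1s1, Itgam and Lrp1 lay between 0.19 and 0.419. Of the other clotting and fibrinolysis genes in the table, F12, Fgb, Kng1, Serpina5 and Serpinb2 had no count in any library.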

How the data were processed

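RNA of sorted lung endothelial cells was extracted with a micro kit and amplified over the whole transcriptome before library preparation for an MGI sequencer, per the labels' protocols. No molecular identifiers are named there, so intervals cover the spread between libraries and counts are not independent molecules. RSEM 1.3.1 and DESeq2 1.4.5 and the builds mm10 and GRCm38 are named in the submitters' processing notes with no role. Which aligner and strand setting were used is stated in no source used here.

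The authors deposited 1 table holding estimated counts, normalized counts, FPKM and TPM for every library. Its estimated counts (read counts, per the file headers) were not whole for 16.2% to 17.9% of values and were rounded for tests. TPM and FPKM are as the authors deposited them, and the deposited normalized counts are a signal whose scaling is not stated. FPKM and normalized counts were not used here.

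Sample titles gave the groups and replicate numbers. edgeR 4.0.16 (R 4.3.3) compared 2 tdTomato+ with 2 ZsGreen+ libraries by its two-sided quasi-likelihood F-test with TMM factors, filterByExpr at a minimum count of 10, and a Benjamini-Hochberg adjusted p under 0.05 over 13177 genes, and was tested on simulated data. CPM use TMM-scaled library sizes of rounded counts over these genes, each standard error is the size of the log2 fold change divided by the square root of F, and 95% intervals use edgeR's total degrees of freedom. The smallest two-sided p of an exact label permutation of 2 against 2 is 0.333, and none was run. All members are named, with every called gene and the 8 of smallest p at a mean of 1 TPM or more among the other pathway genes, and the 2 highest markers of a list. Mmrn1 is both, and 1 of the 8 is not reported here. Cell types and pathways rest on textbook lists. The members, lists and rules were chosen with earlier results of these data known. Chosen after values were seen were the Spint1, C3ar1, F7, F5, Axl, C5ar1 and F10 pattern, the copies, Rtp4, Tmem255b, Cr1l, Cd46 and the genes with no count. Promoters come from RefSeq on GRCm38.p6. Spans are those on which the table and RefSeq give the same positions. Alternatives were upper quartile and RLE factors, limma-voom (limma 3.58.1), DESeq2 1.42.0, no filter and a minimum count of 30, limma with trend on log2(TPM + 1) and log2(TPM + 0.1) over genes at 1 TPM in 2 libraries, a replicate block, and leaving out each library.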

Additional observations from a re-analysis of the deposited data

How the results depend on the processing

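Spint2 was called in every alternative except those without 1 tdTomato+ library. The count of called members was 5 with DESeq2, 2 without a filter on low counts and 0 to 6 without 1 library. The count of other pathway genes called was 6 with DESeq2, 3 without a filter, 0 with upper quartile factors, limma-voom and log2(TPM + 0.1), and 0 to 8 without 1 library. With log2(TPM + 1) it was 1, Vwf in place of Mmrn1. Over all genes 330 were called with DESeq2, 128 without a filter, 22 with log2(TPM + 0.1) and 4 to 304 without 1 library, against 40. With 3 libraries the lone library of a group is assumed to vary like the other group.

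Same-numbered libraries share only a number in the labels. Their deviations from the group means correlated across genes at 0.45, and with the replicate block 934 genes, 13 members and 12 other pathway genes were called, all 13 members higher in tdTomato+ cells (Axl, C3ar1, C4b, C5ar1, Cd55, Cd59a, Cfb, F10, F2r, F7, Masp1, Procr and Spint2).

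Of the 37 members tested, 25 kept their sign in every alternative. Limma on TPM moved the median of all genes by 0.127 (pseudocount 1) and 0.141 (pseudocount 0.1), and members near 0 changed sign there: Tfpi (0.080 and 0.082), Pros1 (0.11 in both), Plau (0.038 and 0.048), Plaur (0.10 in both) and Lman1 (0.016 and 0.017), each less than the shift. Clu lay at -0.0059 with RLE factors and -0.011 with DESeq2. Without 1 library, changes of sign gave ranges of -0.037 to 2.73 for F5, -0.78 to 0.022 for F8, -0.16 to 0.049 for Tfpi, -0.30 to 0.24 for Pros1, -0.11 to 0.44 for Gas6, -0.22 to 0.62 for Plat, -0.34 to 0.12 for Plau, -0.16 to 0.060 for Plaur, -0.51 to 3.70 for Spint1, -0.21 to 0.10 for Lman1, -0.13 to 0.29 for Stxbp5 and -0.29 to 0.37 for Clu. The cause was not tested. Few counts limit precision: F3, F5, F8, Tfpi2, Nt5e and C2 had under 100 counts in every library.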
